A study of Sus scrofa and Bos taurus with 31 samples.

Results

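Chromatin accessibility was examined around 7 genes that encode transcription factors of the hypothalamus, OTP, SIM1, RAX, FEZF1, POU3F2, NR5A1 and SIX6, in pig tissues profiled by ATAC-seq, an assay in which a transposase inserts adapters into DNA that is not wrapped in nucleosomes. The genes were taken by symbol from the RefSeq annotation of the Sscrofa11.1 assembly, in which they are 7 of 20674 protein-coding genes, and each was studied with the 10 kb on either side. The 16 libraries came from 8 tissues of 2 pigs, P348 and P350, and the tissues were hypothalamus, cerebral cortex, cerebellum, adipose, liver, lung, skeletal muscle and spleen. Both animals were Yorkshire castrated males of 6 months and littermates, so the tissues share breed, sex and age, and the labels name no treatment. Each library has a list of peaks, stretches with more reads than their surroundings, and the lists of the cattle libraries of the series were not used here.

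OTP and SIM1 are needed for the neuroendocrine neurons of the paraventricular and supraoptic nuclei, where SIM1 acts as a dimer with ARNT2 upstream of POU3F2, also called BRN2. RAX is an early gene of the eye field and the hypothalamic floor and stays active in tanycytes, FEZF1 and NR5A1 (SF-1) mark the ventromedial nucleus, and SIX6 acts in the eye field, the pituitary and the suprachiasmatic nucleus. NR5A1 is also the steroidogenic factor of adrenal and gonad, and its spleen expression is known from vascular cells. Promoters of developmental factors such as these are often rich in CpG and can be accessible in cells where the gene is not transcribed. In tissue pieces such as these, a smaller share of cells of a type and less accessible DNA per cell cannot be told apart.

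All 7 genes had peaks in the hypothalamus of both pigs and in nearly every other tissue, and 0 of 7 rose or fell in hypothalamus against the 5 non-brain tissues, cerebral cortex or cerebellum by limma at a Benjamini-Hochberg adjusted p under 0.05. Of all genes tested, 3.48% were higher against the non-brain tissues, 0.219% against cerebral cortex and 22.7% against cerebellum, so 0 of 7 says little about these genes. POU3F2 was the 1 gene of the 7 with both hypothalamus libraries above all 10 non-brain libraries, as 2.75% of genes were, and its level in cerebral cortex P348 was above that in hypothalamus P350. Of 74 accessible regions in the 7 windows, 20 were present in both hypothalamus libraries, and all 20 were also present in at least 2 non-brain libraries.

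Sequences of 5 stretches are shown because the results turn on them. They are 300 bases each from Sscrofa11.1, written 5′ to 3′ on the strand of the gene, and were chosen after their values were seen. Capitals mark matches, on either strand, to 7 motifs that were searched. These were the homeodomain core TAATTA, the core ACGTG of sites bound by SIM1 with ARNT2, the octamer ATGCAAAT of POU factors, the nuclear receptor site AAGGTCA bound by NR5A1, the promoter motif CCAAT bound by factor NF-Y, the box TATAAA of core promoters, and the motif GGGCGG bound by factor Sp1. The first is the centre of the region upstream of POU3F2 that had peaks in all 6 brain libraries and in few others, at chr1:65828936-65829235 on the plus strand. The second is the centre of the single region within 50 kb of any of the 7 genes with peaks in both hypothalamus libraries and in no non-brain library, in an intron of CADPS2 upstream of FEZF1, at chr18:24856977-24857276 on the plus strand. The third is the centre of the OTP intron region with the highest fold in hypothalamus, at chr2:86544733-86545032 on the minus strand. The last ones are the bases before the TSS of SIX6, at chr1:189497507-189497806 on the plus strand, and of SIM1, at chr1:67294456-67294755 on the minus strand, since both genes had a peak over the TSS in all 16 libraries.
POU3F2 upstream region: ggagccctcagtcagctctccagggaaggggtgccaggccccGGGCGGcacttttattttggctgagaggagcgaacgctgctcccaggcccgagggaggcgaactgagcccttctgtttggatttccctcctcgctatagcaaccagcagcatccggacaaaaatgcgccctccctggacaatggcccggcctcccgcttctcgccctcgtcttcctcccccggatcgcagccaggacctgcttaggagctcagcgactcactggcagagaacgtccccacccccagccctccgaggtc
FEZF1 upstream region in CADPS2: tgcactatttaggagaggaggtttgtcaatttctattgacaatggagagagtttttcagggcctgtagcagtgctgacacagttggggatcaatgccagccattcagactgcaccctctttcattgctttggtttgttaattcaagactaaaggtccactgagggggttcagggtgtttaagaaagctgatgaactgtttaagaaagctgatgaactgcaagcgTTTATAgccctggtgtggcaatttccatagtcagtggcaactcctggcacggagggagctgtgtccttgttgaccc
OTP intron region: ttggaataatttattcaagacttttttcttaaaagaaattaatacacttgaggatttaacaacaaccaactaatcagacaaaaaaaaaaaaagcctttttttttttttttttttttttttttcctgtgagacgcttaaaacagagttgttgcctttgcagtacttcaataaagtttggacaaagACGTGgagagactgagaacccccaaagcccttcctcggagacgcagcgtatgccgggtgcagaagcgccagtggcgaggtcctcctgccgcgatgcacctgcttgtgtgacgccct
SIX6 before the TSS: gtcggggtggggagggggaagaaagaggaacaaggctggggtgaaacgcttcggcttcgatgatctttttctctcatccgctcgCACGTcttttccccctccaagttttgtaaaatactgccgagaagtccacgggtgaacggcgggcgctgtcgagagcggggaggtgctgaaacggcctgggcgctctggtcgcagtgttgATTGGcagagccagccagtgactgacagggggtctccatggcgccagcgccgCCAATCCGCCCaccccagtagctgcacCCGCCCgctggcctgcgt
SIM1 before the TSS: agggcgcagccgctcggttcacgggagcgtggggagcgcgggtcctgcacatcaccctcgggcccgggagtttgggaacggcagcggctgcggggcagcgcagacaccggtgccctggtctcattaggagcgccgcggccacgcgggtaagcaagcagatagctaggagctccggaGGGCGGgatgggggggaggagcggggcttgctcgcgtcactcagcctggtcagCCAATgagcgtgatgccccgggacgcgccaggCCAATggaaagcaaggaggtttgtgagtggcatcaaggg
The POU3F2 region held 1 GGGCGG, the FEZF1 region 1 TATAAA and the OTP region 1 ACGTG. Over the centres of 68438 regions present in both hypothalamus libraries, GGGCGG was found in 24.0%, TATAAA in 9.8% and ACGTG in 20.1%. The GC content was 64.3% at POU3F2, 46.7% at FEZF1 and 41.0% at OTP, beside a median of 54.0% over those centres. A match to such short letters is common and shows no binding.

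The level of a gene is given as the bases of its window that lie in peaks per Mb of all peak bases of the library, called peak bases per Mb. Levels are set side by side between libraries of the same gene only, since windows ran from 22941 bp for FEZF1 to 100771 bp for SIM1. Differences are log2 differences of the level plus 1, from a limma fit to all 16 libraries and 19638 genes with a peak in at least 2 libraries, a filter that all 7 genes passed. Against the non-brain tissues 684 genes were higher in hypothalamus (3.48%) and 1312 lower (6.68%), against cerebral cortex 43 were higher (0.219%) and 56 lower (0.285%), and against cerebellum 4459 were higher (22.7%) and 708 lower (3.61%). The median over all genes was -0.28, -0.12 and 0.74 in these 3 comparisons, so a log2 difference is best read against it. Without division by all peak bases the medians were -0.47, -0.44 and -0.14 and the calls against cerebellum 114 higher and 1057 lower. The lists ran from 99960 peaks in skeletal muscle P350 to 217308 in cerebellum P348, they hold no read counts, and the depth of each library is unknown here. Skeletal muscle P350 stood apart in these windows, with no peak at POU3F2 and a single peak at SIM1.

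**Figure D1:**
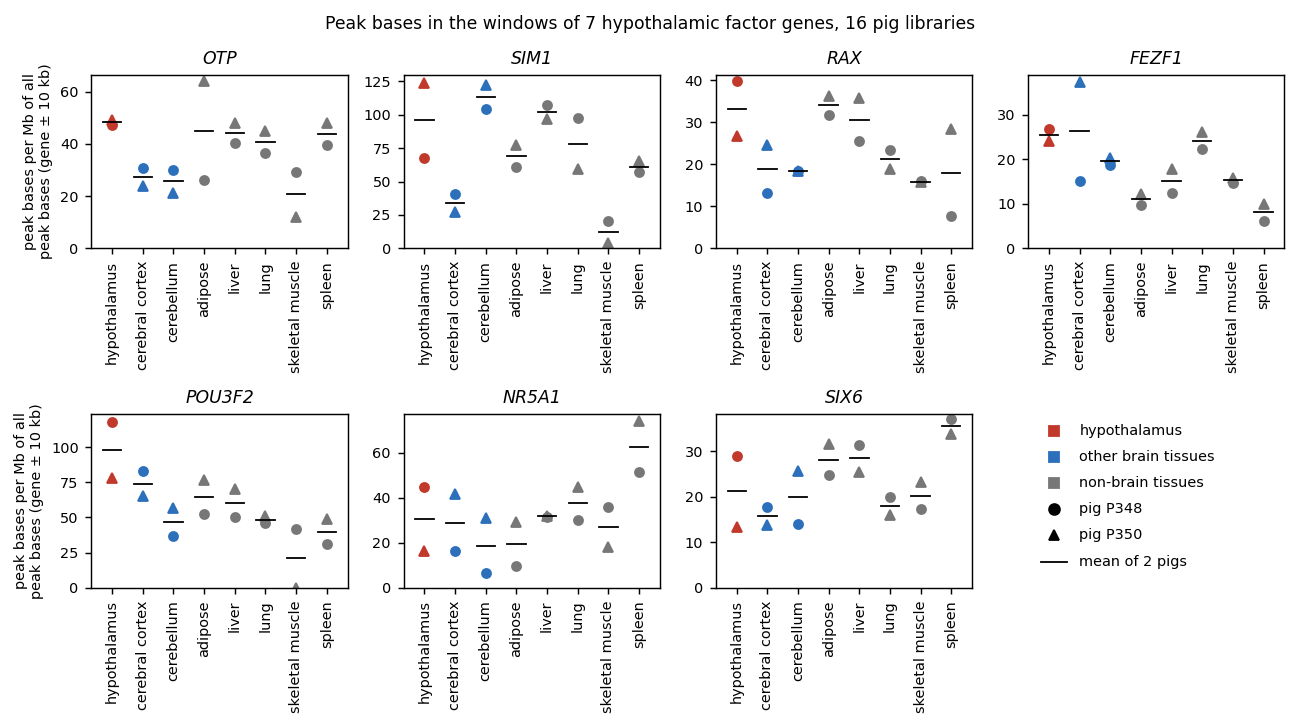
Peak bases per Mb (vertical axis) in each gene plus 10 kb on either side, by tissue (horizontal axis); points are single libraries, circles for P348 and triangles for P350, and lines are means of the 2 pigs. Hypothalamus had the highest mean at OTP and POU3F2, and hypothalamus P350 was the lowest of 16 libraries at SIX6.

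OTP, orthopedia homeobox, lies at chr2:86529293-86566414 on the minus strand (gene 100520724), and its window also holds the non-coding LOC110259769. Its level was 47.2 in hypothalamus P348 and 49.2 in P350, beside 30.6 and 24.0 in cerebral cortex and 30.1 and 21.1 in cerebellum. In the 10 non-brain libraries it ran from 11.99 in skeletal muscle P350 to 63.9 in adipose P350, with a median of 39.9. Both hypothalamus values were above the 4 other brain libraries and above 7 of the 10 non-brain libraries, and adipose P350 was above both. The share of all genes with such an order of libraries was not computed. The log2 difference of hypothalamus was 0.81 ± 0.46 (SE) from cerebral cortex (limma adjusted p = 0.564) and 0.91 ± 0.46 from cerebellum (adjusted p = 0.147). The difference from the non-brain tissues was 0.41 ± 0.36, with a 95% interval of -0.38 to 1.2 (adjusted p = 0.482). In the order of tissue means, hypothalamus (48.2 ± 1.36, SD, n = 2) came before adipose (45.0 ± 26.8), liver (44.3 ± 5.36), spleen (43.6 ± 5.94) and lung (40.7 ± 5.74), and the values of each of these neighbours overlapped.

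SIM1, a bHLH-PAS factor, lies at chr1:67213685-67294455 on the minus strand (gene 100154026). Its level was 67.4 in hypothalamus P348 and 124.2 in P350, 40.6 and 27.4 in cerebral cortex, and 104.4 and 122.7 in cerebellum. Non-brain libraries ran from 4.21 in skeletal muscle P350 to 107.2 in liver P348, with a median of 63.1. P350 hypothalamus was thus the highest of 16 libraries and P348 the 8th. The log2 difference from cerebral cortex was 1.43 ± 0.56, with an unadjusted p of 0.0277 and a limma adjusted p of 0.343. It was 0.84 ± 0.44 from the non-brain tissues (adjusted p = 0.233) and -0.30 ± 0.56 from cerebellum (adjusted p = 0.697), with a 95% interval of -1.54 to 0.94. The window held 6 peaks in hypothalamus P348 and 15 in P350, beside 21 and 23 in cerebellum.

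POU3F2, a POU-domain factor, lies at chr1:65835375-65842872 on the plus strand (gene 100157279). Its level was 117.8 in hypothalamus P348 and 78.3 in P350, 82.8 and 65.2 in cerebral cortex, and 36.5 and 57.0 in cerebellum. The non-brain range was 0 in skeletal muscle P350 to 76.4 in adipose P350, with a median of 49.7. Both hypothalamus libraries were above all 10 non-brain libraries, which 1 of the 7 genes and 2.75% of the 19638 genes showed. Of the 14 other libraries only cerebral cortex P348 was above the lower hypothalamus value, and 0 of the 7 genes had both hypothalamus libraries above all 14, which 0.555% of genes did. The log2 difference from the non-brain tissues was 1.48 ± 0.93 (limma adjusted p = 0.321), with a 95% interval of -0.56 to 3.53 and skeletal muscle libraries at 41.8 and 0. Without skeletal muscle P350 it was 0.94 (adjusted p = 0.0835), and without P348 of that tissue it was 2.03 and passed the threshold (adjusted p = 0.00539). The exact two-sided permutation test gave p = 0.0303 against the 10 non-brain libraries, the smallest that 66 choices allow. Differences from cerebral cortex (0.38 ± 1.2, limma adjusted p = 0.973) and cerebellum (1.06 ± 1.2, adjusted p = 0.508) were not called. The SE is pooled over all tissues, so it takes in the skeletal muscle libraries at 41.8 and 0. Both hypothalamus libraries were above both cerebellum libraries, where the median difference over all genes was 0.74. They were not both above cerebral cortex P348.

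RAX, the retina and anterior neural fold homeobox gene, lies at chr1:161679154-161683486 on the plus strand (gene 100157455). Its level was 39.8 in hypothalamus P348 and 26.7 in P350, 13.2 and 24.6 in cerebral cortex, and 18.3 in both cerebellum libraries. The non-brain values went from 7.59 in spleen P348 to 36.3 in adipose P350, with a median of 24.4. P348 hypothalamus was the highest of 16 and P350 the 6th, and all 4 of the other brain libraries were below both. The share of all genes with both hypothalamus libraries above those 4 was not computed. The difference was above 0 at 39.2% of genes against cerebral cortex and at 76.9% against cerebellum. The difference was 0.55 ± 0.39 from the non-brain tissues (limma adjusted p = 0.385), 0.82 ± 0.50 from cerebral cortex (adjusted p = 0.604) and 0.80 ± 0.50 from cerebellum (adjusted p = 0.23), the last close to the median of all genes. By tissue mean, adipose (34.1 ± 3.15) and hypothalamus (33.3 ± 9.23) were highest and overlapped.

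FEZF1, a zinc-finger factor, lies at chr18:24881850-24884790 on the plus strand (gene 100511110). Its level was 26.7 in hypothalamus P348 and 24.1 in P350, 15.1 and 37.5 in cerebral cortex, and 18.8 and 20.4 in cerebellum. Non-brain libraries ran from 6.11 in spleen P348 to 26.1 in lung P350, with a median of 13.6. Both hypothalamus libraries were above 9 of the 10 non-brain libraries, lung P350 being the exception. FEZF1 had the smallest p of the 7 against the non-brain tissues, with a log2 difference of 0.84 ± 0.31, an unadjusted p of 0.0192 and a limma adjusted p of 0.104. It was the only one of the 7 under an unadjusted 0.05 there, beside 7.81% of genes that were higher at that limit. Against cerebral cortex, SIM1 alone was under it, beside 3.32% of genes, and against cerebellum 0 of 7 were, beside 39.0%. Differences of FEZF1 from cerebral cortex (0.08 ± 0.40) and cerebellum (0.36 ± 0.40) had adjusted p of 0.992 and 0.495.

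NR5A1, an orphan nuclear receptor, lies at chr1:265284491-265311547 on the minus strand (gene 397368), and its window also reaches ADGRD2 and NR6A1. Its level was 44.8 in hypothalamus P348 and 16.3 in P350, 16.4 and 41.5 in cerebral cortex, and 6.39 and 31.0 in cerebellum. In non-brain tissues it went from 9.498 in adipose P348 to 74.0 in spleen P350, with a median of 31.8. Spleen (62.7 ± 15.97) had the highest mean, and both of its libraries were above every other library. In hypothalamus P348 was the higher pig, and in cerebral cortex and cerebellum P350 was. The log2 difference from the non-brain tissues was -0.21 ± 0.59 (limma adjusted p = 0.848).

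SIX6, a homeobox gene, lies at chr1:189497807-189503189 on the plus strand (gene 100519236). Its level was 29.1 in hypothalamus P348 and 13.3 in P350, 17.7 and 13.7 in cerebral cortex, and 14.1 and 25.8 in cerebellum. Non-brain libraries ran from 16.1 in lung P350 to 37.1 in spleen P348, with a median of 25.1. Hypothalamus P350 was the lowest of all 16 libraries, and spleen had the highest mean (35.5 ± 2.26). The difference from the non-brain tissues was -0.34 ± 0.31, with a 95% interval of -1.01 to 0.34 (limma adjusted p = 0.509). Against cerebral cortex the differences were 0.05 ± 0.76 for NR5A1 and 0.32 ± 0.40 for SIX6, and against cerebellum 0.87 ± 0.76 and 0.05 ± 0.40, with limma adjusted p from 0.383 to 1.

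**Figure D2:**
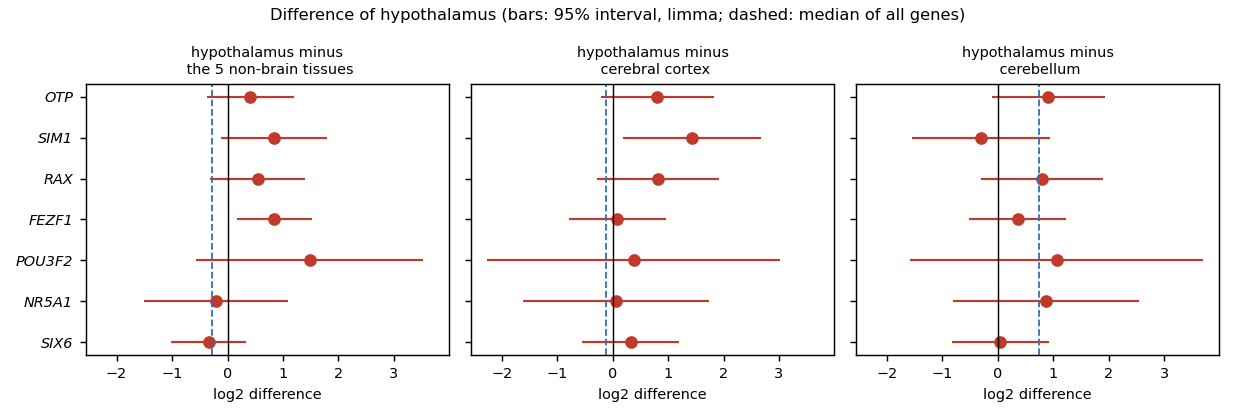
Log2 difference of hypothalamus (horizontal axis) from the 5 non-brain tissues, cerebral cortex and cerebellum for each gene (vertical axis); points are estimates from limma over 16 libraries, bars are 95% intervals and dashed lines are the median of all genes. The intervals of FEZF1 against the non-brain tissues and of SIM1 against cerebral cortex lie above 0, and all others cross it.

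The order of the tissue means (± SD, n = 2) differed between the genes. At SIM1, cerebellum (113.5 ± 13.0) and liver (102.0 ± 7.48) came before hypothalamus (95.8 ± 40.2), lung, adipose and spleen, and cerebral cortex (34.0 ± 9.37) and skeletal muscle (12.4 ± 11.6) came last, each with both libraries below the tissue before it. At POU3F2, hypothalamus (98.0 ± 28.0) was followed by cerebral cortex (74.0 ± 12.4), adipose (64.5 ± 16.8) and liver (60.3 ± 13.6), and no neighbours in the order were apart. FEZF1 was highest in cerebral cortex (26.3 ± 15.8), hypothalamus (25.4 ± 1.86) and lung (24.2 ± 2.74), which overlapped, and lung was apart from cerebellum (19.6 ± 1.16). After adipose, hypothalamus and liver (30.7 ± 7.34), RAX was apart from liver to lung (21.2 ± 3.12). Hypothalamus was 4th of 8 at NR5A1 (30.5 ± 20.1) and at SIX6 (21.2 ± 11.2), where it overlapped its neighbours, and spleen was apart from the next tissue at both genes. How many of all genes have neighbouring tissues apart in this way was not computed.

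Each gene was also tested alone against the 14 other libraries by an exact two-sided permutation test over 120 choices of 2 libraries, in which the smallest p is 0.0167. The log2 difference of POU3F2 was 1.27 (exact p = 0.0333), with both hypothalamus libraries above 13 of the 14. Benjamini-Hochberg adjustment over the 7 exact tests gave p = 0.233. The others had raw p from 0.133 for RAX to 0.883 for NR5A1 in the same exact test. Exchanging libraries only within an animal gave POU3F2 an exact p of 0.0312.

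The promoters were accessible broadly. A TSS proximal peak, within 2 kb of an annotated TSS, was present in both hypothalamus libraries at 4 of the 7 genes, SIM1, RAX, POU3F2 and SIX6, beside 69.2% of all protein-coding genes. The count was 5 in cerebral cortex, cerebellum and adipose, 6 in liver and lung, 3 in skeletal muscle and 4 in spleen, so hypothalamus did not have the most. Over all protein-coding genes the share ran from 67.3% in cerebellum to 77.2% in lung. Counts of 3 to 6 of 7 beside these shares say little about the 7 genes. Across libraries, SIM1 and SIX6 had such a peak in all 16, RAX and POU3F2 in 15, FEZF1 in 14, NR5A1 in 10 and OTP in 3. A peak in at least 14 of 16 libraries was found at 5 of the 7 genes and at 65.2% of protein-coding genes. RAX and POU3F2 lacked it in skeletal muscle P350, and FEZF1 in hypothalamus P350 and spleen P348. For NR5A1 hypothalamus P348 had a peak and P350 had none. OTP had TSS proximal peaks in adipose P350, liver P350 and spleen P350, and in no brain library. The annotated OTP TSS lies 30413 bp before the start of its coding sequence. Within 2 kb of that start both hypothalamus libraries had a peak, as did both libraries of cerebellum, adipose and lung. Neither cerebral cortex library had one there.

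These TSS proximal peaks were low. The fold, the ratio of signal to local background averaged over the peak, was 2.79 to 3.68 at the 6 genes with a peak in hypothalamus P348, where the median of 15145 genes was 5.11. It was 2.53 to 3.31 at the 4 genes in hypothalamus P350, where the median was 4.98. In both hypothalamus libraries every one of these genes was below the median, at percentiles from 2.09 for RAX in P350 to 22.9 for SIX6 in P348. All genes with a peak were below the median in the cerebral cortex libraries as well, and 4 of 5 and 6 of 6 were in cerebellum. In the non-brain libraries the values above the median were POU3F2 in liver (7.24 in P348 and 5.81 in P350), FEZF1 and SIM1 in skeletal muscle P350 (8.11 and 6.46) and SIM1 in adipose P350 (3.63). The widths were not small, since the median widest peak was 1029 bp in hypothalamus P348 and 1181.5 bp in P350, beside 842 and 880 bp over all genes with a TSS proximal peak.

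**Figure D3:**
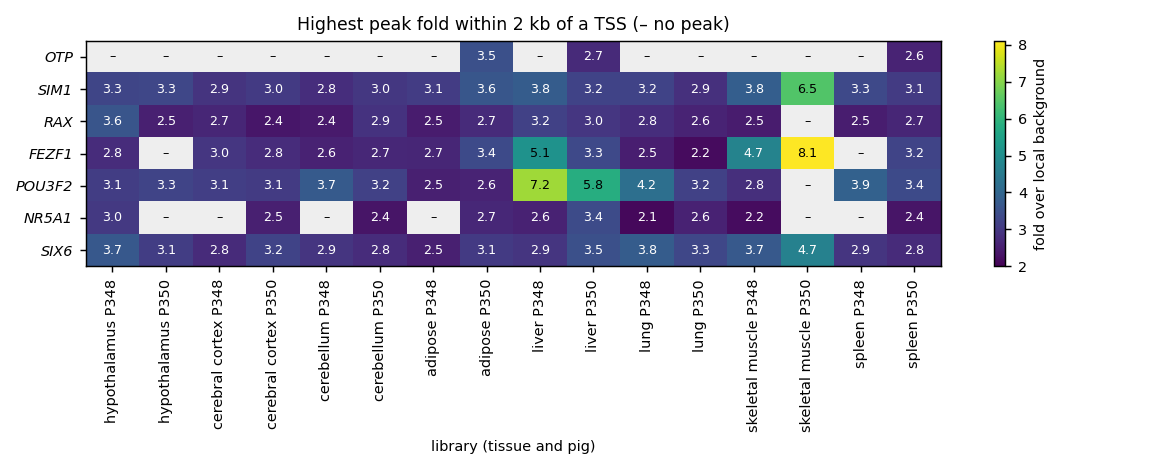
Highest fold over local background of a peak within 2 kb of a TSS (colour and number) for each gene (vertical axis) in each library (horizontal axis); a dash is no peak. Hypothalamus lies between 2.53 and 3.68, and the highest values are in skeletal muscle P350 and liver.

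The promoters, taken from 250 bases before to 50 after the most upstream TSS, held 50.3% (OTP) to 70.7% (RAX) GC, beside a median of 58.0% over 20664 promoters. The ratio of observed to expected CpG was 0.338 at OTP, the gene with the fewest TSS proximal peaks, and 0.444 at NR5A1, the gene with the next fewest. It ranged from 0.52 to 0.915 at the 5 genes with a peak in 14 or more libraries, and the median of all promoters was 0.63. These are descriptions over 7 genes. The annotated OTP TSS lies 30413 bp before the start of its coding sequence, and whether it is the TSS in use was not tested. Of the other motifs, the homeodomain core (in 4.45% of all promoters), the octamer (1.47%) and the core promoter box (11.6%) were found in none of the 7 promoters. The NR5A1 motif AAGGTCA was found once, in RAX (3.86% of promoters), and ACGTG in NR5A1 and SIX6 (21.7%). CCAAT was present in SIM1, FEZF1 and SIX6 (35.6%) and GGGCGG in SIM1, POU3F2, NR5A1 and SIX6 (49%), and the stretch of SIX6 printed above holds the last 3 of these motifs on 1 strand or the other.

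Regions were made by merging peaks of the 16 libraries that share at least 1 bp. The windows held 16 regions at OTP, 26 at SIM1, 5 at RAX, 4 at FEZF1, 7 at POU3F2, 12 at NR5A1 and 4 at SIX6. Of the 74, 6 were present in all 16 libraries and 14 in a single library. Of the 20 present in both hypothalamus libraries, 30.0% were in all 16 libraries, and the share over 68715 such regions of the genome was 24.5%. Without a peak in a non-brain library there were 0 of 20, beside 6.06% of those regions of the genome. The region over the TSS was in 16 libraries at SIM1 (chr1:67293225-67295040) and SIX6 (chr1:189497338-189499510), in 15 at RAX (chr1:161678053-161680383) and POU3F2 (chr1:65832573-65837327) and in 14 at FEZF1 (chr18:24879267-24882412).

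Some regions had peaks in brain libraries only, such as chr1:67270374-67272033 at SIM1 in hypothalamus P350 and both cerebellum libraries. None of these was present in both hypothalamus libraries. Among the 20 regions that were, the one with the fewest non-brain libraries was at POU3F2. It spans 610 bp at chr1:65828781-65829390, from -6594 to -5985 bp relative to the TSS in sequence with no annotated gene, and its centre is the first sequence printed above. Its fold was 3.69 and 3.88 in hypothalamus, 3.81 and 3.62 in cerebral cortex and 2.70 and 3.17 in cerebellum. Adipose had 2.50 and 2.78, and the 8 libraries of liver, lung, skeletal muscle and spleen had no peak there. All 6 brain libraries thus had the region, the forebrain tissues with the highest folds, and hypothalamus was not above cerebral cortex beyond the gap between pigs. In the same window the region over the TSS was highest in liver (7.24 and 5.81), beside 3.12 and 3.26 in hypothalamus.

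**Figure D4:**
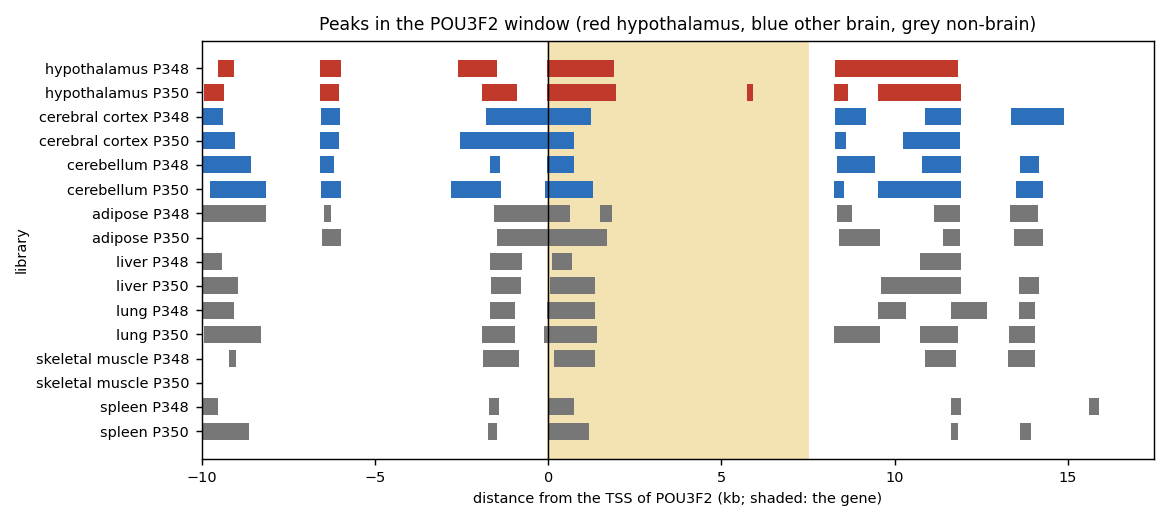
Peaks (bars) of each library (vertical axis) in the POU3F2 window by distance from the TSS in kb (horizontal axis); the gene is shaded. The region about 6 kb before the TSS has bars in 6 brain and 2 adipose libraries, and skeletal muscle P350 has no bar.

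In OTP the region with the highest fold in hypothalamus was in an intron, at chr2:86544246-86545519, 20895 to 22168 bp after the annotated TSS, and it was present in 15 libraries. The fold was 6.01 and 5.64 in hypothalamus, beside 3.43 and 4.30 in cerebral cortex and 3.28 and 3.77 in cerebellum. Liver reached 7.48 and 5.57 and spleen 5.66 and 3.41, so hypothalamus was above the other brain tissues in both pigs, and liver was above it in P348 and just below it in P350. A region upstream of OTP, at chr2:86572728-86574491, had folds of 4.54 and 4.72 in cerebral cortex, lower folds in cerebellum P348 (2.55), adipose P348 (3.29), liver P350 (3.51) and lung P350 (2.89), and no peak in hypothalamus. At SIM1 a region over a coding exon, chr1:67222008-67223144, had 4.80 and 3.21 in hypothalamus, 5.599 and 5.08 in cerebral cortex and 3.95 and 4.27 in cerebellum, beside at most 3.99 in the 7 non-brain libraries with a peak. At NR5A1 an intron region, chr1:265299404-265301897, was present in both hypothalamus libraries (2.63 and 3.84) and in 6 non-brain libraries. At RAX the region after the gene, chr1:161686253-161687997, was in all 16 libraries, and its 5.21 and 3.44 in hypothalamus were within the other libraries' range.

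Widening the search to 50 kb around the genes gave 174 regions, 33 of them in both hypothalamus libraries, and 1 of those lacked a non-brain peak. It spans 655 bp at chr18:24856800-24857454, from -25050 to -24396 bp relative to the TSS of FEZF1, within an intron of CADPS2, a gene for a protein of dense-core vesicle release. Its fold was 4.98 and 5.38 in hypothalamus and 5.71 and 5.61 in cerebral cortex, with no peak in cerebellum. The region was therefore shared by the forebrain tissues and was not particular to hypothalamus, and which of the genes it belongs to was not tested.

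Peaks with a listed q-value under 0.0001 were also taken alone. At POU3F2 these strict peaks covered 208.4 and 223.0 bases per Mb in hypothalamus, 125.2 and 120.8 in cerebral cortex and 122.8 and 212.4 in cerebellum. Non-brain libraries ran from 0, listed in both adipose and both skeletal muscle libraries, to 99.8 in liver P350, so all 6 brain libraries were above all 10, as at 0.6% of 18335 genes. The difference of hypothalamus from the non-brain tissues was then 4.23 on the log2 scale (limma adjusted p = 1.11e-05), beside 4.19% of genes called higher with strict peaks, while the value with all peaks, 1.48, did not pass. SIX6 had strict peaks in 8 of 10 non-brain libraries and in 1 of 6 brain libraries, hypothalamus P348 (49.8 bases per Mb). FEZF1 had them in 5 non-brain libraries and in none of the 6 brain libraries. The share of all genes with counts like those of SIX6 and FEZF1 was not computed. Depth can change which peaks pass such a limit, and its part was not tested.

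**Figure D5:**
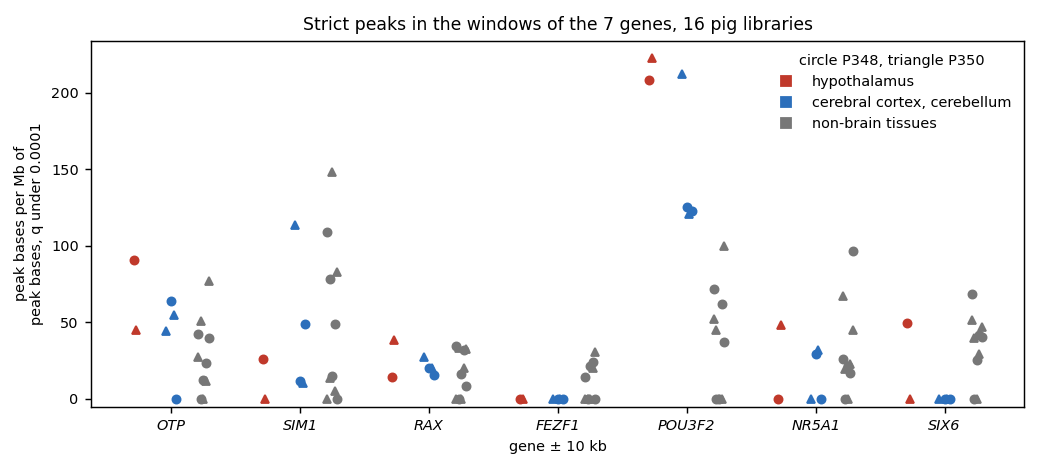
Bases in peaks with q under 0.0001 per Mb of such bases (vertical axis) in the window of each gene (horizontal axis); points are the 16 libraries. At POU3F2 all brain libraries lie between 121 and 223 and the non-brain libraries between 0 and 99.8, while FEZF1 has no brain library above 0.

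Related genes were counted in the same fit. Of 20 other transcription factor genes of the hypothalamus, 2 were higher in hypothalamus than in the non-brain tissues (3.48% of all genes were), 0 were lower, and the median difference was 0.12, beside -0.28 over all genes. The higher ones were FOXB1, a factor of the mammillary body, at 1.44 ± 0.26 (limma adjusted p = 0.00803), and LHX8, a LIM homeobox gene of basal forebrain neurons, at 1.17 ± 0.25 (adjusted p = 0.0169). NKX2-2 and SIX3, the other large ones, were at 1.53 ± 0.81 and 0.94 ± 0.43 with adjusted p of 0.241 and 0.18. Against cerebral cortex 0 of 20 passed and against cerebellum NKX2-2 (3.87, adjusted p = 0.027) and HMX2 (1.78, adjusted p = 0.0411) were higher, 2 of 20 where 22.7% of all genes were. The FOXB1 levels of 48.9 and 27.9 in hypothalamus still overlapped the non-brain range of 0 to 40.4. LHX8 overlapped more, with 56.8 and 32.2 in hypothalamus beside a non-brain range of 0 to 49.3 and a median of 40.6.

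Among the 8 paralogs, 2 were higher than in the non-brain tissues, where 3.48% of all genes were, and the median was 0.69, beside -0.28 over all genes. POU3F4, the X-linked relative of POU3F2, had 15.2 and 19.5 in hypothalamus and a non-brain range of 0 to 8.58 with a median of 0 (3.27 ± 0.57, limma adjusted p = 0.00721). NR5A2, the relative of NR5A1 that acts in liver and pancreas, was 1.51 ± 0.37 higher (adjusted p = 0.0285), although its 134.9 and 67.7 in hypothalamus lay within the non-brain range of 0 to 137.6. POU3F3 had 1.70 ± 0.64 (adjusted p = 0.114) and SIX3, counted above too, 0.94. POU3F1 (0.44), FEZF2 (0.08), SIM2 (-0.02) and RAX2 (-0.36) had adjusted p from 0.478 to 0.993. None of the 8 passed against cerebral cortex, and POU3F1 was higher than in cerebellum, by 1.76 ± 0.49 (adjusted p = 0.0296), 1 of 8 where 22.7% of all genes were.

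Of 8 genes for hormones and peptides of these neurons, 0 were higher and 1 was lower against the non-brain tissues, where 3.48% and 6.68% of all genes were, and the median was 0.10, beside -0.28 over all genes. The lower gene was AVP, for vasopressin, whose window was listed at 0 in both hypothalamus libraries and at 4.07 to 31.4 in the non-brain libraries (limma adjusted p = 0.00705). TRH had 0 and 18.9 in hypothalamus (adjusted p = 0.103), ADCYAP1, for the peptide PACAP, 37.7 and 28.2 (adjusted p = 0.244), and OXT, for oxytocin, 3.06 and 8.58 (adjusted p = 0.564). Against cerebral cortex and cerebellum 0 of 8 passed.

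The label of the tissue was checked by marker lists. Of 12 hypothalamus markers, PMCH, for melanin-concentrating hormone, rose against the non-brain tissues (3.05 ± 0.39, limma adjusted p = 0.0017) and cerebral cortex (4.06 ± 0.51, adjusted p = 0.00388), with 16.9 and 14.5 in hypothalamus and 0 in both cerebral cortex libraries. It was not called against cerebellum, where the mean was 11.98 (0.36 ± 0.51, limma adjusted p = 0.593). AGRP was the 1 marker of the 12 called higher against cerebellum (0.98 ± 0.30, limma adjusted p = 0.0361), where 22.7% of all genes were. AVP fell against the non-brain tissues, and the summed level of the 12 was 223.7 and 185.4 in hypothalamus, inside the 165.8 to 298.9 of the non-brain libraries. GABRA6 rose by 3.29 ± 0.77 (limma adjusted p = 0.0234), 1 of 4 cerebellum markers, and against the non-brain tissues 0 of 4 cerebral cortex, 2 thalamus, 5 pituitary, 3 neuron and 2 astrocyte markers passed. Over all genes 3.48% rose and 6.68% fell against the non-brain tissues, and 0.219% rose against cerebral cortex. POU1F1, the pituitary factor, had no peak in hypothalamus. The part of tissue composition in the members' values was not tested.

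Genes of like pattern were named by the highest Pearson r of log2 levels over the 16 libraries, on other chromosomes. They were RGS13, SOX17 and HYDIN for POU3F2 (r of 0.963, 0.956 and 0.952), but these values fell to 0.535, 0.575 and 0.482 without skeletal muscle P350. For SIM1 they were CRNN, GPR39 and ALX1 (0.925 to 0.905, and 0.733 to 0.815 without that library), and for OTP PARD6G, GRHL3 and DNAJB3 (0.863 to 0.843, and 0.714 to 0.732 without it). RAX went with VWA5A, TRPC7 and RHBDD1 (0.804 to 0.794), FEZF1 with RIMBP2, PLCXD3 and SOHLH1 (0.844 to 0.812), NR5A1 with TCF19, FANCA and CSF2RB (0.878 to 0.842) and SIX6 with SLA-DMA, GCC1 and SUB1 (0.887 to 0.847). The points share their libraries and list lengths, and each was chosen from at least 14861 genes.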

How the data were processed

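The members and the gene lists were chosen with earlier results of these data known. ATAC-seq peak lists of 16 pig libraries were used. The authors called peaks with MACS2 in broad mode at a q-value limit of 0.05, on Sscrofa11.1. Their methods also describe calls on the alignments of both replicates together, but the deposited lists used here are 1 per library and differ between the pigs. The submitters' processing notes name Trim Galore 0.4.5, BWA 0.7.17, SAMtools 1.10 and Picard 2.18.17, and whether read ends were shifted for the transposase is not given in the sources used here. The deposited fold enrichment (a ratio of signal to local background) and, on the −log10 scale, the deposited q-value and p-value of each peak are averages over a broad peak, so some listed q-values exceed 0.05. The lists hold no read counts, so depth was not adjusted for and no counting interval is given.

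Genes, transcripts and sequence came from RefSeq release 106 of Sscrofa11.1, and all 270 sequence names of the lists matched it. Bases in peaks within the gene and 10 kb on either side were divided by all peak bases of the library. log2(peak bases per Mb + 1) was fitted with limma 3.58.1 in R 4.3.3 over 8 tissues, without trend or robust options, with Benjamini-Hochberg adjustment over 19638 genes, and called at 0.05. The step was tested on simulated data. Single genes were tested by exact two-sided permutation. Named genes were the 7 members, the lists' largest differences (all paralogs) and the 3 genes of closest pattern. No region within 10 kb met the rule of a peak in both hypothalamus libraries and in no non-brain library. The regions described were therefore chosen after seeing values. Samples were grouped by tissue label. Animal names pair libraries, since they mark the same pig. As the check, deviations of libraries of the same pig from their tissue means correlated by 0.00393 on average over 28 pairs of tissues (-0.165 to 0.124). With 2 littermates, limma p-values rest on the spread between 2 animals per tissue, pooled over the 8 tissues and moderated across genes. The exact tests exchange single libraries of different tissues, so their p-values also take in the spread between tissues. They treat the 2 libraries of a tissue as separate units. Alternatives were other windows, q-value limits, list lengths, scalings, pseudocounts, filters, a replicate block and leaving out libraries, and after the data were seen the start of the coding sequence in place of the TSS and regions within 50 kb. Some of the marker lists that were computed are not reported here.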

Additional observations from a re-analysis of the deposited data

How the results depend on the processing

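Of the 7 genes, 0 were called higher in the main fit. Against the non-brain tissues 1 was called with q under 0.0001 (POU3F2, 4.23) and 1 with a 50 kb window (SIM1, 1.03). Over all genes 768 of 18335 and 1330 of 20154 were called higher in these 2 settings. In the exact permutation test POU3F2 had a raw p of 0.0303, which was not adjusted for the number of genes and so is a looser limit. The log2 difference of POU3F2 was 2.03 without skeletal muscle P348 and 0.94 without skeletal muscle P350. With lists of equal length 1 of the 7 was called against cerebral cortex (SIM1, 3.25), beside 195 of 19448 genes. Against cerebellum 2 were called (FEZF1 at 4.10, SIX6 at 4.69), beside 2163 of 19448 genes. The exact test against 14 libraries had 1 gene with a raw p under 0.05, before adjustment over the 7 tests. That count was 0 with a 2 kb window, undivided peak bases or the number of peaks. It was 1 to 2 without a library other than hypothalamus (2 without cerebral cortex P350). Without hypothalamus P348 or P350 the exact p of POU3F2 was 0.267 and 0.133, where too few choices remain to reach 0.05. TSS proximal peaks in both hypothalamus libraries went from 4 genes to 1 at q under 0.0001 and to 4 to 6 without a library. Over all protein-coding genes the share with such peaks in both went from 69.2% to 52.6% at q under 0.0001. Regions present in both hypothalamus libraries and without a non-brain peak went from 0 to 1 within 50 kb.

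Against the non-brain tissues the log2 difference reversed for OTP with lists of equal length (-0.30) and the number of peaks (-0.087), SIM1 at q under 0.0001 (-1.92), FEZF1 at q under 0.01 (-1.32), at q under 0.0001 (-2.25) and with equal length (-0.018), NR5A1 with equal length (0.48), 2 kb (0.64) and the number of peaks (0.19), and SIX6 at q under 0.01 (0.076). Against cerebral cortex it reversed for OTP with equal length (-0.40), SIM1 at q under 0.0001 (-1.19), RAX with 50 kb (-0.32) and the number of peaks (-0.24), FEZF1 at q under 0.01 (-1.37), with 50 kb (-0.39) and undivided (-0.24), NR5A1 at q under 0.01 (-0.29), at q under 0.0001 (-2.18), with 50 kb (-0.65) and undivided (-0.28), and SIX6 undivided (-0.0012). Against cerebellum it reversed undivided for OTP (-0.038), RAX (-0.14), FEZF1 (-0.58), NR5A1 (-0.046) and SIX6 (-0.88), and for RAX with 50 kb (-0.071). In the exact test it reversed for NR5A1 with 2 kb (0.77), equal length (0.77) and the number of peaks (0.24), FEZF1 at q under 0.01 (-0.78) and q under 0.0001 (-1.60), SIX6 at q under 0.01 (0.77), with equal length (0.68) and the number of peaks (0.059), SIM1 at q under 0.0001 (-2.09) and OTP with equal length (-0.24). The cause was not tested.

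Leaving out a library gave ranges that cross 0 for NR5A1 (-0.91 to 0.49) and SIX6 (-0.87 to 0.20) against the non-brain tissues, FEZF1 (-0.55 to 0.71), NR5A1 (-0.65 to 0.75) and SIX6 (-0.21 to 0.86) against cerebral cortex, SIM1 (-0.74 to 0.13), NR5A1 (-0.18 to 1.93) and SIX6 (-0.49 to 0.58) against cerebellum, and NR5A1 (-0.72 to 0.68) and SIX6 (-0.72 to 0.35) in the exact test. A tissue left with 1 library was assumed to vary like the others. With the animal as a replicate block, 0 of the 7 genes were called in any of the 3 comparisons, 1 had an exact p under 0.05, and no call of a related or marker gene changed, while calls over all genes went from 684 to 625 higher against the non-brain tissues and from 4459 to 3503 against cerebellum. FEZF1 had no peak at q under 0.0001 in any brain library, so it gave no value there against cerebral cortex or cerebellum. Exact tests against 2 libraries cannot go below 0.333 and were not used. The lists give no depth, and 2 pigs per tissue limit what differences could be seen.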

Other observations

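Over the 16 libraries the log2 levels of pairs of the 7 genes correlated from -0.68 (FEZF1 and SIX6) to 0.76 (SIM1 and POU3F2). The points share their libraries and list lengths, and the values are descriptions.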
